A study of Mus musculus with 12 samples.

Results

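Chromatin accessibility at 10 apolipoprotein genes (Apoa1, Apoc3, Apoa4, Apoa5, Apob, Apoe, Apoc1, Apoa2, Apoh and Apom) was read from ATAC-seq peak lists of mouse hepatocytes, with 1 library from each of 12 mice. In ATAC-seq a transposase cuts and tags open DNA, and a peak marks a stretch that was cut more than its surroundings. All mice carried FBXL5F/F alleles, in which Fbxl5 is flanked by recombination sites. FBXL5F/F mice without Cre served as floxed controls, and Alb-Cre/FBXL5F/F mice, which express Cre from the albumin promoter, had Fbxl5 deleted in hepatocytes. Mice of each genotype ate standard chow or 0.1% DDC, a compound that causes porphyrin accumulation and cholestatic injury, in the diet for 2 weeks, with 3 mice in each of the 4 groups. The peak regions described are those that overlapped the span of one of the 10 genes or lay within 20 kb of it. All 10 genes were found in the annotation, at 6 loci, and 124 of the 292665 regions joined over the 12 libraries belonged to them. Regions between neighbouring genes of a cluster fall in the windows of several members, and each was counted once.

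Apolipoproteins are the protein part of lipoprotein particles, which carry lipids in plasma, and the liver is a main source of most of them. Apob is the structural protein that stays with a very low density lipoprotein from its assembly until it is cleared as low density lipoprotein. Apoa1 and Apoa2 are the main proteins of high density lipoprotein, and the smaller exchangeable members move between particles and set how fast these are lipolysed or taken up. Liver expression of these genes is known to depend on hepatocyte transcription factors such as HNF4A and FOXA proteins, which bind promoters and distant enhancers.

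Promoter sequences (RefSeq, assembly GRCm38.p6, the assembly of mm10) matched 8 of the 10 genes by symbol, all but Apoc3 and Apoc1, with 12 promoter entries. The 250 bases before a transcription start are given for 6 of them. Apoa4 and Apob had the strongest start regions of the 8, Apoa5 had the start region with the lowest adjusted p for diet, Apoa2 and Apoa1 had weak start regions, and Apoh had no peak over its promoter in any library. Capitals mark matches to the motifs searched.
Apoa4, chr9:46240594-46240843, plus strand: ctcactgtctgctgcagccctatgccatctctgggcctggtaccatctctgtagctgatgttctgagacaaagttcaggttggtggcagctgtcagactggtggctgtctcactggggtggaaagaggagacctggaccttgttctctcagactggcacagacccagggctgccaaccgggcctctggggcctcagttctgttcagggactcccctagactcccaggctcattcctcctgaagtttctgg
Apob, chr12:7977427-7977676, plus strand: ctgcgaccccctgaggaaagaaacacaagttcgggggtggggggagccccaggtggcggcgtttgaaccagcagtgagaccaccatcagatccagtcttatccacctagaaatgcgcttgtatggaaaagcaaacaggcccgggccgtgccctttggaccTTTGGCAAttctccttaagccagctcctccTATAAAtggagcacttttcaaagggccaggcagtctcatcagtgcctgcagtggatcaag
Apoa5, chr9:46268358-46268607, plus strand: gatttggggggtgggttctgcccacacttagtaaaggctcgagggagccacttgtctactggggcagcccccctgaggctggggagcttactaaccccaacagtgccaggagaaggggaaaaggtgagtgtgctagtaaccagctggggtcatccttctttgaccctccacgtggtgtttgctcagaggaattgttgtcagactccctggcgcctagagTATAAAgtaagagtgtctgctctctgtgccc
Apoa2, chr1:171224804-171225053, plus strand: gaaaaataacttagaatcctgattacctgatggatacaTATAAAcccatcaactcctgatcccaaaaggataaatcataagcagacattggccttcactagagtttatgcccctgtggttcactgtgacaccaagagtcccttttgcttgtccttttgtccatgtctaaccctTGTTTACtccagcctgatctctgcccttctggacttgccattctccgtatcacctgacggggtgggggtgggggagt
Apoa1, chr9:46228380-46228629, plus strand: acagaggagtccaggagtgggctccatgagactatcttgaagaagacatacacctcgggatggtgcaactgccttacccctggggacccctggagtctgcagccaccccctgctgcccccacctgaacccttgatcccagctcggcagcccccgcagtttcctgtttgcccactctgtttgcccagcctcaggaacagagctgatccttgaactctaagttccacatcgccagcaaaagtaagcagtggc
Apoh, chr11:108395047-108395296, plus strand: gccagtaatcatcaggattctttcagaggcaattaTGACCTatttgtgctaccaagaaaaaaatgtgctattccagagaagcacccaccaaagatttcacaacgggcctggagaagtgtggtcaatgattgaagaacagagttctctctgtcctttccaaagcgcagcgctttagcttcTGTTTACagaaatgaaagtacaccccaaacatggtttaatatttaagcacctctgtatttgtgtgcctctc

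Motifs of transcription factors known in liver were searched on both strands of 300-base promoters, which run on to 50 bases after the start. The TATA box letters TATAAA stood in 5 of the 12 entries, from 4 members, and in 13.6% of 32544 distinct promoters of the genome. In the Apoa5 and Apob sequences above their first base lay at -31 and -60 from the start, and in the Apoa2 sequence at -212. The FOXA type motif TGTTTAC, found in 3.66% of all promoters, stood in those of Apoa2, Apoe and Apoh. Its first base lay at -77 from the downstream Apoa2 start and at -71 from the Apoh start. The nuclear receptor type motif AGGTCA was in promoters of Apoa2 and Apoh and in 16.2% of all promoters. The C/EBP type motif TTGCNNAA was in promoters of Apoa2 and Apob and in 10.8% of all. The HNF4 type motif CAAAGTCCA (0.479% of all promoters) had no exact match in the 12 entries, nor had the AP-1 type motif TGACTCA (5.19%). Overlapping matches were kept, as at Apoe, where TATAAA on both strands overlapped. The members' promoters held 1 to 12 CpG dinucleotides per 300 bases with a median of 4.5, against a median of 7 over all promoters, and the 3 entries with 10 or more were all from Apoe. A match is a description of the letters and not evidence of binding.

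Within a library, peaks were ranked by fold enrichment, the height of a peak over the background estimated in the same library, and the strongest 137034 were kept, the length of the shortest list. The value of a region is its rank mapped to the mean log2 fold enrichment at that rank over the 12 libraries. A region counts as listed when it is among the kept peaks, and an unlisted region takes the lowest value, 1.27. Values are therefore relative to the other regions of the same library. The lists hold 137034 to 262080 peaks, with no read counts, so sequencing depth is unknown. Libraries 1 and 3 of the Fbxl5-deleted mice on the standard diet (262080 and 260622 peaks) stood apart from the others (137034 to 202912 peaks). Differences and most counts that rest on these libraries are also given without both, a fit that keeps 1 deleted standard-diet library and takes it to vary like the other groups. The start regions of all 10 hepatocyte markers were listed in all 12 libraries, while those of cholangiocytes (2 of 8), sinusoidal endothelium (3 of 8), stellate cells (3 of 8), lymphocytes (1 of 7) and macrophages (0 of 8) mostly were not, and Krt19, Cftr, Clec4f, Stab2 and Cd3e had no region within 2 kb of their start. Where listed in all 12 libraries, start regions of other cell types could be strong. Sox9 (3.01), Clec4g (3.20), Fcgr2b (3.13), Lrat (3.23), Reln (3.26), Col1a1 (3.28) and Cd4 (3.02) exceeded the hepatocyte marker median of 2.79. Spp1 (2.44) and Kdr (1.715) lay below it. Peaks of the Fbxl5 gene, 6 regions in its span, do not test the deletion, since the sources used here do not place the deleted exon.

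The start regions of most apolipoprotein genes were listed, and where listed they were weak beside other listed starts. Of the 10 members, 9 had a region within 2 kb of a start, 8 a start region listed in 3 or more libraries and 4 one listed in all 12. Of 17492 genes with a promoter entry, 4372 had no region within 2 kb, 66.4% had one listed in 3 or more libraries and 57.5% in all 12. Over the 12 libraries the order was Apoa4 (2.72 ± 0.24), Apob (2.69 ± 0.29), Apoc3 (2.33 ± 0.21), Apom (1.98 ± 0.27), Apoa5 (1.97 ± 0.37), Apoa2 (1.89 ± 0.28), Apoa1 (1.61 ± 0.17) and Apoe (1.48 ± 0.17; mean ± SD, n = 12 libraries of all 4 groups). The gaps between Apoa4 and Apob, between Apom and Apoa5, between Apoa5 and Apoa2, and between Apoa1 and Apoe were smaller than the larger SD of the pair. Among the 11613 genes whose start region was listed in 3 or more libraries, the median value was 3.40 and the lower quartile 2.78, and each of these 8 lay below that quartile. Of those genes 23.7% were at or below Apoa4, 22.9% at or below Apob, 17.1% at or below Apoc3 and 4.86% at or below Apoe. When genes with no start region were counted as lower, 36.8% of all 17492 genes were at or below Apoe and 49.3% at or below Apoa4, so over all genes the 8 stood near or somewhat under the middle. The start regions of the 10 hepatocyte markers had a median of 2.79, near the same quartile. Values compare peak height over local background and are not amounts of DNA or transcript.

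**Figure D1:**
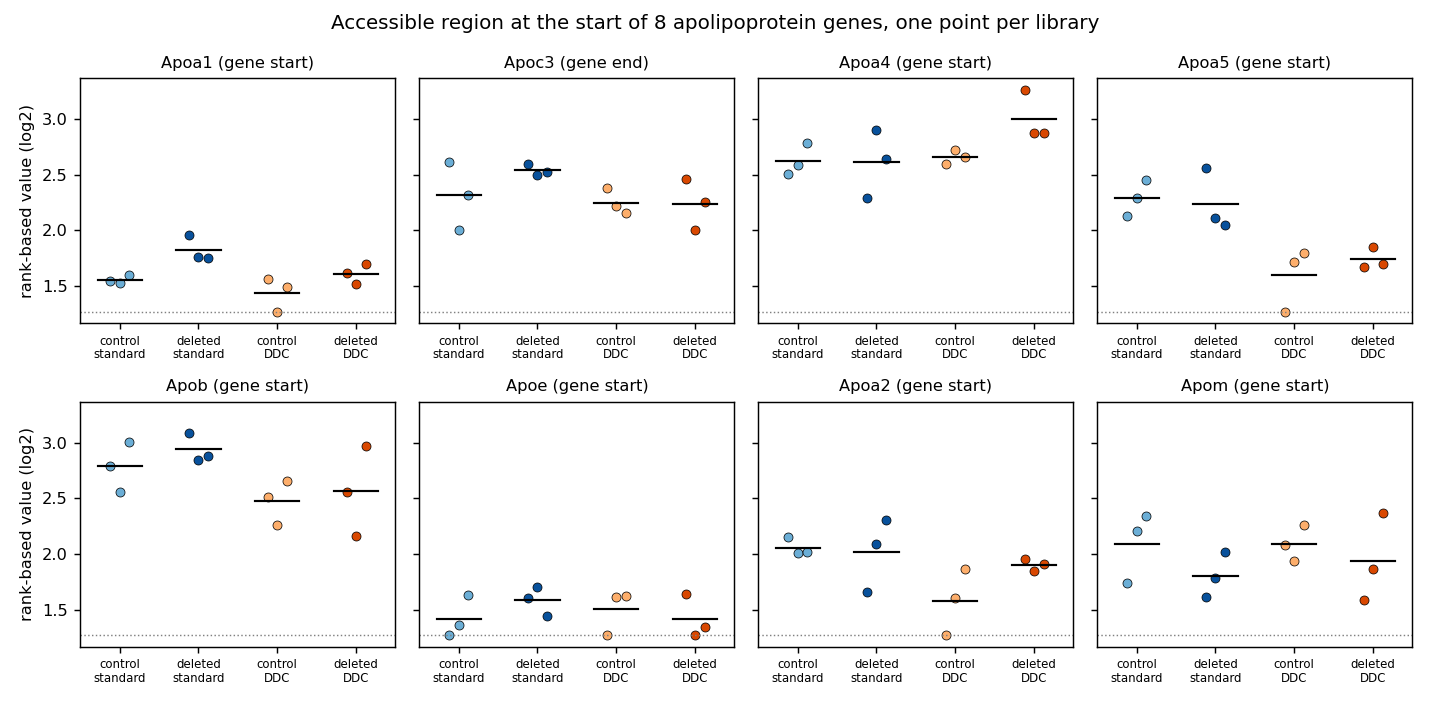
Value of the start region of 8 apolipoprotein genes (y axis, rank-based log2 fold enrichment) in each of 12 libraries, grouped by genotype and diet on the x axis; points are libraries, black lines are means of 3, and the dotted line is the lowest value, 1.27. Apob, Apoe and Apom overlap in every diet and genotype comparison, and each other gene has at least 1 comparison without overlap. Apoa5 sits at 2.13 to 2.45 in floxed controls on the standard diet and at 1.27 to 1.80 on DDC.

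Apob, which forms the particle, had a start region at chr12:7977444-7978120 that was listed in all 12 libraries. Its values were 2.79, 2.56 and 3.01 in floxed controls on the standard diet and 2.51, 2.26 and 2.65 on DDC. In Fbxl5-deleted mice they were 3.09, 2.85 and 2.88 on the standard diet and 2.56, 2.16 and 2.97 on DDC. The diet groups overlapped in both genotypes, and the differences were -0.31 ± 0.23 (adjusted p = 0.487) in controls and -0.37 ± 0.23 (adjusted p = 0.431) in deleted mice. Without deleted standard-diet libraries 1 and 3 the latter was -0.28 ± 0.34 (adjusted p = 0.821). Here and below a difference is on the log2 scale with its standard error, and adjusted p values are from limma with Benjamini-Hochberg adjustment over all regions tested. Another region just inside the gene, chr12:7978240-7978790, had a similar level, 2.75 over all libraries. It read 2.84, 2.87 and 3.03 in controls on the standard diet against 2.61, 2.38 and 2.43 on DDC, which do not overlap, but the difference of -0.44 ± 0.22 did not pass (adjusted p = 0.247). The rest of the long Apob gene held few shared regions: of the 28 regions at this locus 9 were listed in at least 3 libraries and 5 in all 12.

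Apoa1, the main protein of high density lipoprotein, had a start region (chr9:46228496-46229078) listed in 11 libraries, at ranks from 80151 to 119557 of 137034. It read 1.54, 1.53 and 1.60 in controls on the standard diet and 1.56, 1.27 and 1.49 on DDC, the 1.27 standing for a library in which it was not listed. Deleted mice gave 1.96, 1.76 and 1.75 on the standard diet and 1.62, 1.52 and 1.69 on DDC. These diet groups did not overlap, and the difference of -0.21 ± 0.21 did not pass (adjusted p = 0.633). It was -0.15 ± 0.27 without deleted standard-diet libraries 1 and 3. On the standard diet the deleted mice were thus all above the controls, and the difference of 0.27 ± 0.21 did not pass the test (adjusted p = 0.815, and 0.20 ± 0.27 without deleted standard-diet libraries 1 and 3). Apoa2, also a high density lipoprotein protein, has 2 listed starts. The region over the downstream start, chr1:171224842-171225359, was listed in 11 libraries and read 2.16, 2.00 and 2.01 in controls on the standard diet against 1.27, 1.60 and 1.87 on DDC. These groups did not overlap, with a difference of -0.48 ± 0.25 (adjusted p = 0.292). In deleted mice it read 1.66, 2.09 and 2.30 on the standard diet and 1.96, 1.85 and 1.91 on DDC, which overlap. The first base of the Apoa2 span had its nearest region at chr1:171220833-171221362, in the neighbouring Tomm40l gene, which was listed in all 12 libraries with a mean of 2.13.

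Apoc3 encodes an inhibitor of lipoprotein lipase and of remnant uptake, and Apoa5 an activator of lipolysis, and the genes stand in the same cluster. The region at the end of the Apoc3 span nearer Apoa4, chr9:46234991-46235910, was listed in all libraries. It read 2.62, 2.00 and 2.32 in controls and 2.60, 2.50 and 2.52 in deleted mice on the standard diet. On DDC it read 2.38, 2.21 and 2.15 in controls and 2.46, 2.01 and 2.26 in deleted mice, and of the groups compared only those of deleted mice on the 2 diets did not overlap (-0.30 ± 0.24, adjusted p = 0.557, and -0.26 ± 0.34 without deleted standard-diet libraries 1 and 3). The Apoa5 start region, chr9:46268170-46268896, read 2.13, 2.29 and 2.45 in controls on the standard diet and 1.27, 1.72 and 1.80 on DDC. In deleted mice it read 2.56, 2.11 and 2.05 on the standard diet and 1.67, 1.85 and 1.70 on DDC. In both genotypes every DDC library was below every standard-diet library, and this was the start region with the lowest adjusted p. The differences were -0.70 ± 0.25 (adjusted p = 0.107) in controls and -0.50 ± 0.25 (adjusted p = 0.319) in deleted mice, and neither passed. The second was -0.37 ± 0.34 without deleted standard-diet libraries 1 and 3.

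Apoa4, an exchangeable apolipoprotein of intestine and liver, had the strongest start region of the 8, chr9:46240444-46241492, at ranks from 26498 to 62810. It read 2.51, 2.59 and 2.79 in controls on the standard diet, 2.60, 2.72 and 2.66 in controls on DDC, and 2.29, 2.90 and 2.64 in deleted mice on the standard diet. Deleted mice on DDC gave 3.26, 2.87 and 2.87. The last group lay above the controls on DDC without overlap, with a difference of 0.34 ± 0.22 (adjusted p = 0.947). The Apom start region (chr17:35131538-35132272), at the gene of the sphingosine 1-phosphate carrier of high density lipoprotein, read 1.74, 2.20 and 2.34 in controls on the standard diet and 2.08, 1.94 and 2.26 on DDC. Deleted mice gave 1.61, 1.78 and 2.02 on the standard diet and 1.59, 1.86 and 2.37 on DDC. All 4 Apom groups overlapped.

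Apoe, the ligand by which remnants bind the low density lipoprotein receptor, has 3 listed starts, and the region over the outermost of them, chr7:19698778-19699350, was listed in 10 libraries at ranks from 99093 to 137029. It read 1.27, 1.36 and 1.63 in controls on the standard diet, 1.27, 1.61 and 1.63 in controls on DDC, 1.61, 1.71 and 1.44 in deleted mice on the standard diet and 1.64, 1.27 and 1.34 in deleted mice on DDC. The annotated span of Apoe runs further, and the region over its first base, chr7:19700906-19701321, was strong. This region overlaps the span of Tomm40 as well, was listed in all 12 libraries and had a mean of 3.54, near the median of 3.52 of the 10053 gene starts listed in all 12. It read 3.27, 3.63 and 3.54 in controls and 3.71, 3.45 and 3.64 in deleted mice on the standard diet, and 3.53, 3.51 and 3.44 and 3.42, 3.79 and 3.55 on DDC. Its 5 differences lay between -0.03 and 0.12, and between -0.03 and 0.13 without deleted standard-diet libraries 1 and 3.

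Apoc1, the gene of an inhibitor of lipoprotein uptake next to Apoe, had a region over an end of its span in 1 library only (chr7:19692554-19692703, library 1 of deleted mice on the standard diet, value 1.55). Inside the gene, chr7:19691936-19692289 was listed in 8 libraries, namely all 6 on the standard diet and 2 of 6 on DDC. Its values were 1.99, 1.79 and 1.42 against 1.27, 1.27 and 1.41 in controls, a difference of -0.41 ± 0.22 that did not pass (adjusted p = 0.300). Apoh encodes beta-2 glycoprotein I, which binds anionic phospholipid. None of the 12 deposited lists held a peak over its promoter, and no region lay within 2 kb of its start. Of its 14 regions, 5 were listed in 3 or more libraries and 1 in all 12, and that one (chr11:108424710-108425982) holds the start of the neighbouring gene Cep112.

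Of the 124 regions, 68 were listed in at least 3 of the 12 libraries and could be tested, out of 138538 in the genome, and 56 were listed in 1 or 2 libraries. By locus, 19 of 23 regions were tested at Apoa1-Apoc3-Apoa4-Apoa5, 16 of 22 at Apoe-Apoc1, 12 of 21 at Apoa2, 9 of 28 at Apob, 7 of 16 at Apom and 5 of 14 at Apoh. Over tested regions the median value was 2.108 for the 68 member regions and 1.988 for all 138538. Among regions listed in all 12 libraries the order was the other way. The 41 member regions so listed had a median of 2.655, against 3.06 for all 61671 such regions. Of the 41, 8 exceeded that median, and 3 of these 8 hold the start of another gene (Tomm40, Cep112 and Csnk2b), none the start of a member. The strongest of all, chr1:171203859-171204795, lay 16769 bp from Apoa2 outside any protein-coding gene, with a mean of 4.38 and ranks from 254 to 3811. The next strongest intergenic regions were chr9:46246816-46247125 between Apoa4 and Apoa5 (3.07) and chr9:46255937-46257436 in the same interval (2.97).

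**Figure D2:**
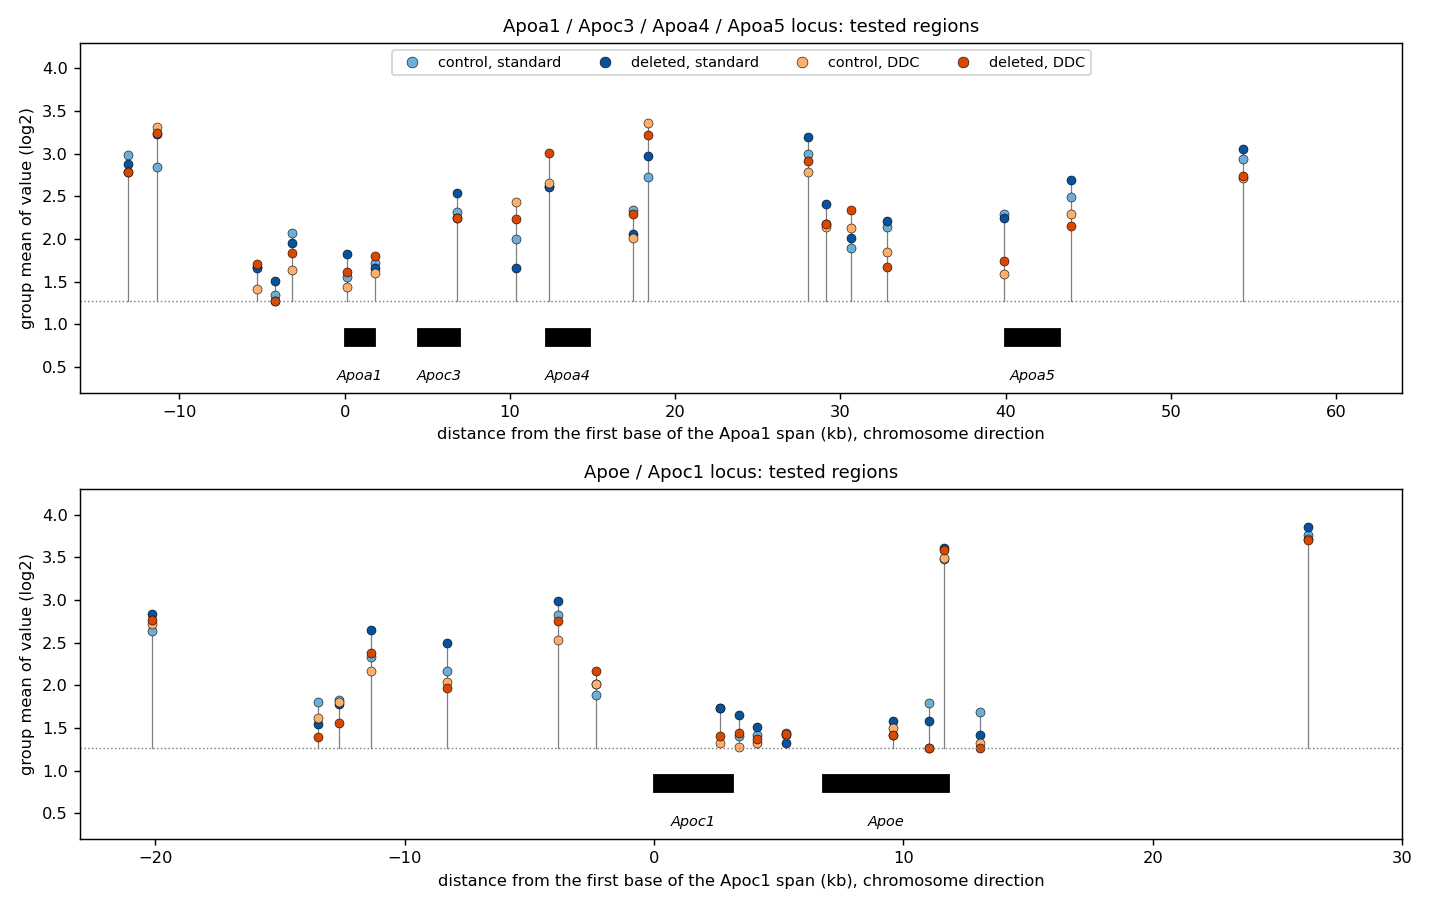
Mean value of each tested region (y axis, rank-based log2 fold enrichment) in the 4 groups against its distance in kb along the Apoa1-Apoc3-Apoa4-Apoa5 locus and the Apoe-Apoc1 locus. The points of the 4 groups lie close together at most positions, and the highest at Apoe-Apoc1 are the regions at the Apoe span end (3.54) and at the Tomm40 start (3.76).

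The first comparison asked what DDC feeding did in floxed controls. None of the 68 member regions rose or fell (limma, adjusted p under 0.05), while 7.02% of all tested regions were called (4.66% rose and 2.36% fell). At an unadjusted p under 0.05, 2 member regions were higher and 3 lower, against 21.2% of all regions. Below the threshold for single regions, 54 of the 68 member regions had a lower mean on DDC and 14 a higher one, and 51.0% of all tested regions were lower. The median difference was -0.13 over the members and -0.01 over all regions tested. It was nearer 0 without control DDC library 2 (-0.08 over the members) and with library strength as a covariate (-0.07, against -0.02 over all regions). Among regions listed in all 12 libraries, 30 of 41 members (73.2%) and 56.7% of all regions were lower. The lower side held 9 of 9 tested regions at Apob, 11 of 12 at Apoa2, 12 of 16 at Apoe-Apoc1, 14 of 19 at the Apoa1 cluster, 5 of 7 at Apom and 3 of 5 at Apoh. With library strength as a covariate, 47 of 68 (69.1%) were lower, against 52.0% of all regions. With peaks ranked by −log10 p, 55 of 87 (63.2%) were lower, against 49.1% of all. This is a description of one list, and no test was made of the list itself. Standard errors of the member differences were 0.105 to 0.329, and the median shift is of the size of the smallest of them.

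**Figure D3:**
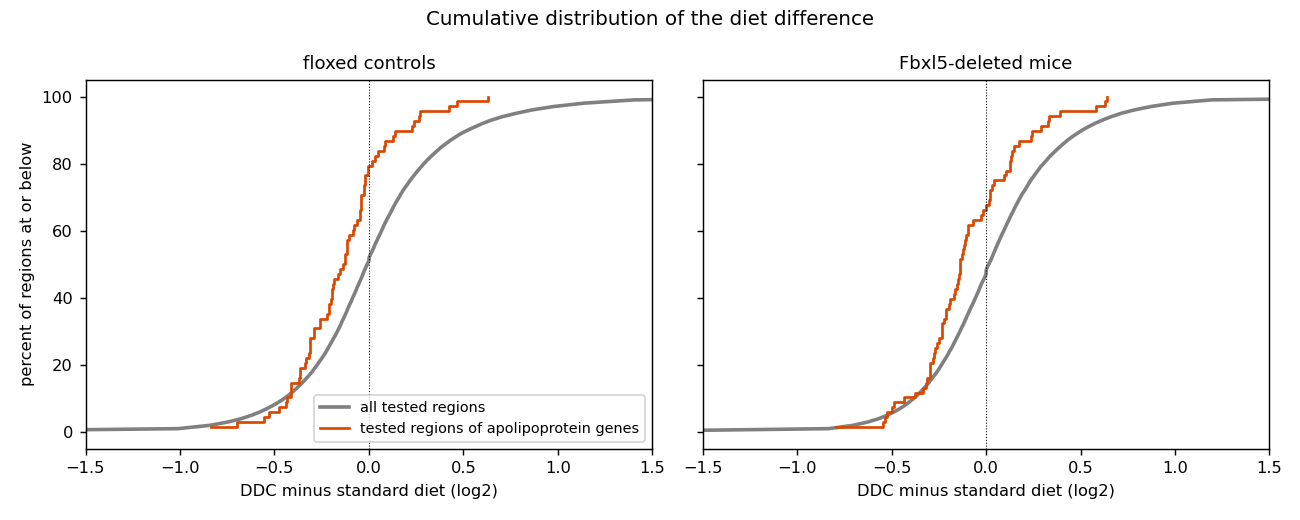
Cumulative share of regions (y axis, percent) at or below a given DDC minus standard difference (x axis, log2) for the 68 member regions and all 138538 tested regions, in floxed controls and in Fbxl5-deleted mice. In both genotypes the member curve lies to the left of the other over the middle of the range, with medians of -0.13 against -0.01 and -0.14 against 0.01.

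Peak number and some marker values of other cells differed between the diets in the same libraries. Floxed controls had 137034 to 151836 peaks on the standard diet and 179740 to 202912 on DDC. Deleted mice had 262080, 151137 and 260622 on the standard diet and 168993, 191743 and 170186 on DDC, which overlap. The summed start values of the 8 macrophage markers were 8.88 to 9.37 in controls on the standard diet and 10.33 to 10.74 on DDC, with 0 to 2 and 2 to 5 of them listed. In deleted mice these sums were 8.88 to 9.30 and 8.95 to 9.92. Those of the 8 cholangiocyte markers were lower on DDC without overlap in both genotypes, at 10.77 to 11.21 and 9.93 to 10.34 in controls and 11.41 to 11.54 and 9.84 to 10.49 in deleted mice. The 8 sinusoidal endothelium markers summed to 12.61 to 12.94 and 13.30 to 13.93 in controls, which do not overlap, and to 12.61 to 13.62 and 12.69 to 13.67 in deleted mice, which do. Sums overlapped between the diets for stellate cells (14.87 to 15.96 and 15.14 to 15.54 in controls, 14.54 to 15.44 and 14.41 to 15.49 in deleted mice) and for the 1 lymphocyte marker with a start region. The 10 hepatocyte markers summed to 24.52 to 27.46 and 23.95 to 26.12 in controls and to 25.67 to 29.90 and 24.56 to 27.25 in deleted mice, which overlap. The part of these in the member values was not tested. In such preparations fewer cells of a type and less accessibility per cell cannot be told apart.

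The 3 member regions with the lowest p in controls were spread over 3 loci. A region 17736 bp from Apoa2, chr1:171203535-171203828, read 2.44, 2.27 and 2.45 on the standard diet and 1.73, 1.27 and 1.66 on DDC. The groups did not overlap, and the difference was -0.84 ± 0.26 (adjusted p = 0.0541). It lies directly beside the strong region named above, which read 4.61, 4.38 and 4.17 on the standard diet and 4.20, 4.23 and 4.35 on DDC, a difference of -0.13 ± 0.12 (adjusted p = 0.593). The intergenic region between Apoa4 and Apoa5, chr9:46246816-46247125, went the other way, with 2.76, 2.44 and 2.99 on the standard diet and 3.17, 3.47 and 3.44 on DDC. These groups did not overlap either, and the difference was 0.63 ± 0.21 (adjusted p = 0.0696). The last, chr7:19700382-19700604 inside the Apoe span, was listed in 3 of 3 controls on the standard diet (1.77, 1.79 and 1.83) and 0 of 3 on DDC (adjusted p = 0.0995), so its difference has no true size. The deposited lists held weaker peaks there on DDC, with fold enrichments of 2.43, 1.89 and 2.50 against 3.29, 3.45 and 3.38. The Apoa2 and Apoe regions of these are near the threshold and were called when the Fbxl5-deleted standard-diet libraries 1 and 3 were left out of the shared estimate of spread (adjusted p = 0.0412 and 0.0327). Leaving out a single deleted standard-diet library gave 1 call each, the Apoe region without library 1 (adjusted p = 0.0256) and the Apoa2 region without library 2 (0.0431) or 3 (0.0466).

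In Fbxl5-deleted mice DDC again moved none of the 68 member regions past the threshold, with 3.17% of all tested regions called (2.43% rose and 0.743% fell). Without deleted standard-diet libraries 1 and 3 the count was again 0 of 68, with 0.863% of all regions called. Unadjusted p values under 0.05 were found for 3 member regions that were higher and 4 that were lower, against 17.4% of all regions, and without those libraries for 3 and 1, against 11.8%. The mean was lower on DDC in 46 of 68 member regions, against 47.2% of all, with medians of -0.14 and 0.01. Without the same libraries 39 of 68 were lower (median -0.10), against 45.6% of all. With library strength as a covariate 37 of 68 (54.4%) were lower, against 49.4% of all, and the member median was -0.03. By locus 14 of 16 were lower at Apoe-Apoc1, 9 of 12 at Apoa2, 6 of 9 at Apob, 11 of 19 at the Apoa1 cluster, 4 of 5 at Apoh and 2 of 7 at Apom. Without deleted standard-diet libraries 1 and 3 the first of these counts was 11 of 16, and the rest were 8 of 12, 5 of 9, 10 of 19, 3 of 5 and 2 of 7. The deleted and control mice are different animals and share no library between these comparisons.

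Of the member regions with the lowest p in deleted mice, 2 are described. A region beyond the end of Apoh, chr11:108418615-108418868, was listed in 1 of 3 deleted mice on the standard diet (1.27, 1.27 and 1.80) and in 3 of 3 on DDC (2.16, 2.27 and 1.82). That difference was 0.64 ± 0.24 (adjusted p = 0.168), and 0.82 ± 0.32 (adjusted p = 0.301) without deleted standard-diet libraries 1 and 3. The region chr9:46271315-46273913, which overlaps the end of Apoa5 and the start of Zpr1, read 2.78, 2.61 and 2.69 on the standard diet and 2.16, 2.05 and 2.24 on DDC, a difference of -0.54 ± 0.23 (adjusted p = 0.214), and of -0.46 ± 0.31 (adjusted p = 0.639) without them.

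**Figure D4:**
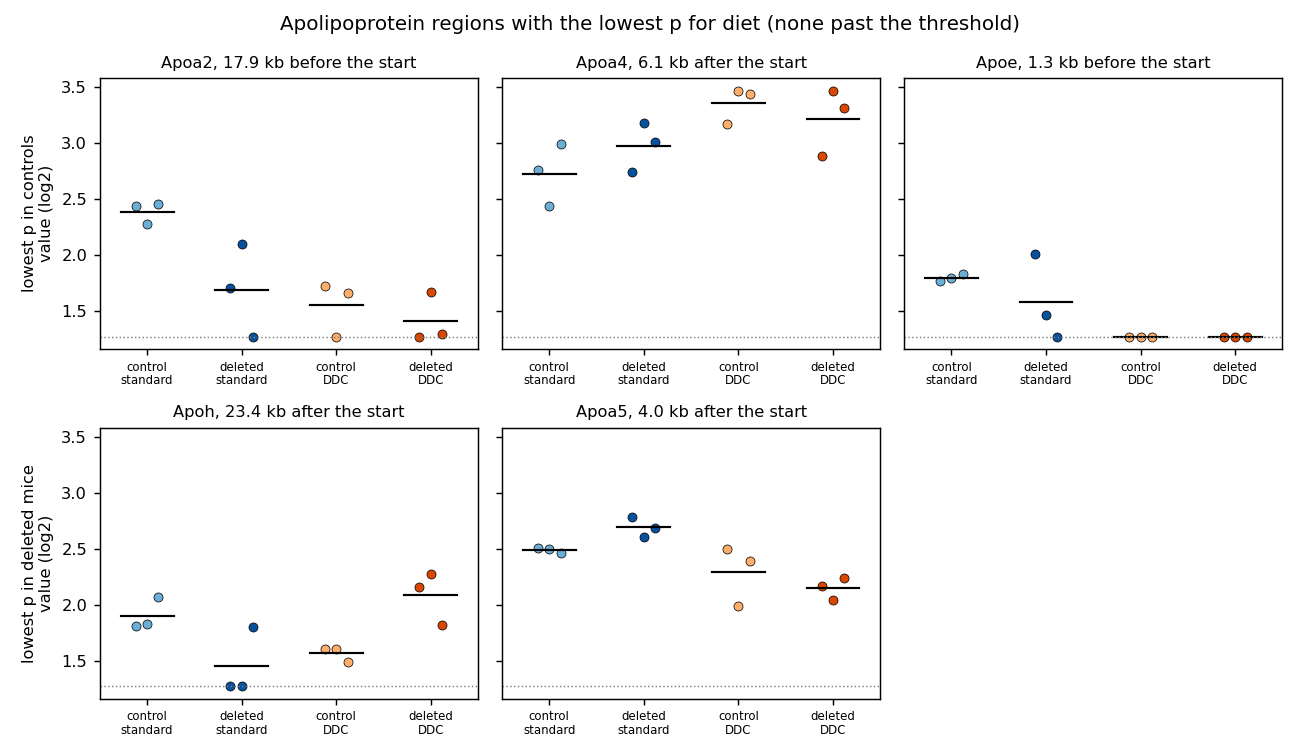
Values of 5 member regions (y axis, rank-based log2 fold enrichment) among those with the lowest p for diet, 3 in floxed controls (top) and 2 in Fbxl5-deleted mice (bottom), in the 12 libraries by group; points are libraries, black lines means of 3, and the dotted line the lowest value, 1.27. The region between Apoa4 and Apoa5 is at 3.17 to 3.47 in controls on DDC and at 2.44 to 2.99 on the standard diet.

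The genotype comparisons asked whether loss of Fbxl5, a subunit of a ubiquitin ligase that degrades iron regulatory proteins, changed these loci. On the standard diet 0 of 68 member regions were called, and of all regions 1, or 0.000722%. Unadjusted p under 0.05 was found for 2 member regions, both lower, against 8.09% of all, and without deleted standard-diet libraries 1 and 3 for 1 higher and 1 lower, against 5.37%. The lowest was again the region 17736 bp from Apoa2, with 1.70, 2.09 and 1.27 in deleted mice, all below the control values above, a difference of -0.70 ± 0.26 (adjusted p = 0.470). Next were chr12:7957839-7958319, 19310 bp from Apob, and chr9:46216941-46217555 in Sik3 near Apoa1. The Apob region read 2.53, 2.95 and 2.12 in controls and 2.19, 1.36 and 2.18 in deleted mice, which overlap, and the difference was -0.62 ± 0.29 (adjusted p = 0.611). The Sik3 region read 2.74, 2.99 and 2.81 in controls and 3.63, 2.92 and 3.13 in deleted mice, which overlap, with a difference of 0.38 ± 0.19 (adjusted p = 0.651). These differences moved by more than 1.5 times without deleted standard-diet libraries 1 and 3. They became -0.29 ± 0.33 at the region near Apoa2 (adjusted p = 1.0), -1.17 ± 0.38 at the Apob region (adjusted p = 0.621) and 0.07 ± 0.24 at the Sik3 region (adjusted p = 1.0).

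On DDC 0 of 68 member regions were called between the genotypes, and 0.0% of all regions. At an unadjusted p under 0.05, 2 member regions were higher and 2 lower in deleted mice, against 5.94% of all. The Cep112 start region near Apoh read 3.95, 4.07 and 4.20 in controls and 3.70, 3.65 and 3.69 in deleted mice, without overlap, a difference of -0.39 ± 0.15 (adjusted p = 0.658), which turned to 0.584 (adjusted p = 1.0) when peaks were joined only at 50% reciprocal overlap.

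The limma interaction term, which asks whether the diet effect differed between genotypes, called 0 of 68 member regions and 0.0% of all regions. At an unadjusted p under 0.05, 1 member region was higher and 1 lower, against 5.87% of all. The higher one was the region beyond Apoh, where the difference of the diet effects was 0.97 ± 0.34 (adjusted p = 0.847), and 1.15 ± 0.40 (adjusted p = 0.916) without deleted standard-diet libraries 1 and 3. At chr17:35115627-35116110, in Ly6g5b near Apom, it was 0.75 ± 0.41 (adjusted p = 0.868), and 0.27 ± 0.49 (adjusted p = 0.998) without them. That region read 1.27, 2.22 and 1.91 in controls and 1.27, 1.99 and 1.27 in deleted mice on the standard diet, and 1.81, 1.73 and 1.51 and 2.17, 1.76 and 2.49 on DDC, so it was listed in all 6 DDC libraries and 3 of 6 on the standard diet. At chr12:7957839-7958319 near Apob the difference of the diet effects was 0.74 ± 0.42, and 1.29 without deleted standard-diet libraries 1 and 3. With standard errors of 0.148 to 0.465 for the interaction, these values do not show that the genotypes responded alike.

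The window of 20 kb sets which regions count. Just inside it lay Apoc1 regions at 19160 and 19622 bp and the Apob region at 19310 bp, with means of 1.28, 2.74 and 2.20. Just outside lay a region 20422 bp from Apoa2 (4.10), one 20443 bp from Apom (1.31) and one 20753 bp from Apoa1 (3.40). With the window at 50 kb, an alternative chosen after the data were seen, 2 regions fell on DDC in controls. They were chr12:8038099-8039230, 21260 bp from Apob (-0.72 ± 0.15, adjusted p = 0.00606), and chr11:108349321-108349933, 45364 bp from Apoh (-1.65 ± 0.35, adjusted p = 0.00569). In deleted mice chr17:35103004-35103854, 25143 bp from Apom, rose (0.56 ± 0.15, adjusted p = 0.0493). Over all tested regions 7.02% were called in controls and 3.17% in deleted mice.

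Other genes of lipoprotein metabolism were followed in 4 lists with the same 20 kb window. Among the 12 other apolipoproteins, 1 of 55 tested regions rose and 1 fell on DDC in controls (3.64% called, against 7.02% of all), and none did in deleted mice, where 3.17% of all were called. Of the regions in that list 20 are also member regions, since Apoc2 and Apoc4 stand in the Apoe cluster. A region 3688 bp from Saa4, an apolipoprotein of the serum amyloid A family, rose from 1.27, 1.94 and 1.43 to 2.70, 2.67 and 2.25 (0.997 ± 0.275, adjusted p = 0.0311). One 10605 bp from Clu, the gene of clusterin, fell from 3.16, 2.94 and 2.41 to 1.37, 2.00 and 1.52 (-1.205 ± 0.353, adjusted p = 0.0420). Both calls depended on single libraries. The Saa4 call was lost without control standard-diet library 1 or 3 or control DDC library 1 or 2 (adjusted p = 0.118, 0.101, 0.110 and 0.116). The Clu call was lost without control standard-diet library 1 or 2 or any control DDC library (0.145, 0.119, 0.150, 0.0603 and 0.112).

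In the list of 13 genes for lipoprotein assembly and secretion, 5 of 172 tested regions rose and 2 fell on DDC in controls (4.07%), and 2 rose in deleted mice (1.16%), where 0 rose and 1 fell without deleted standard-diet libraries 1 and 3. Both shares with all 12 libraries were below those of all tested regions, 7.02% in controls and 3.17% in deleted mice. A region in Mia3, which helps bulky cargo leave the endoplasmic reticulum, rose from 1.46, 1.27 and 1.27 to 2.94, 2.90 and 2.43 in controls (1.42 ± 0.29, adjusted p = 0.00505). With only peaks of −log10 q of at least 5 that difference was 0.224 and not called (adjusted p = 0.268). A region 7643 bp from Surf4, a cargo receptor for lipoprotein export, rose from 3.26, 3.21 and 2.56 to 3.78, 3.74 and 3.85 (0.784 ± 0.185, adjusted p = 0.0124, and 0.0759 without control standard-diet library 3). A region 8574 bp from Dgat2, an enzyme of triglyceride synthesis, fell from 3.31, 3.47 and 3.505 to 2.70, 2.82 and 2.44 (-0.77 ± 0.19, adjusted p = 0.0176). The Dgat2 call was lost without control standard-diet library 2 or 3 or control DDC library 3 (0.0634, 0.0700 and 0.0668), and with library strength as a covariate (0.0870) or 50% reciprocal overlap (0.0578). Another region, 17442 bp from Dgat2, rose in controls (0.572 ± 0.172, adjusted p = 0.0474). In deleted mice the regions that rose were near Tmem41b, needed for lipoprotein export (1.138 ± 0.285, adjusted p = 0.0317), and Sort1, the sorting receptor sortilin (1.19 ± 0.30, adjusted p = 0.0345). Leaving out any of deleted standard-diet libraries 2 and 3 and deleted DDC libraries 2 and 3 ended the Tmem41b call (0.0686, 0.107, 0.0510 and 0.165). For Sort1 this held for standard-diet libraries 1 and 2 and each DDC library (0.109, 0.102, 0.106, 0.118 and 0.0556). In controls another region, inside Sort1, fell (-0.565 ± 0.146, adjusted p = 0.0223).

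Among 22 genes of lipoprotein remodelling and clearance, 11 of 335 regions rose and 5 fell on DDC in controls (4.78%), and 4 rose and 6 fell in deleted mice (2.99%), against 2 and 1 without deleted standard-diet libraries 1 and 3. With all 12 libraries, 7.02% of all tested regions were called in controls and 3.17% in deleted mice, above the shares of this list. A region in Lipc, the hepatic lipase gene, rose in both genotypes, from 1.47, 1.85 and 1.82 to 3.16, 3.49 and 2.67 in controls (1.40 ± 0.24, adjusted p = 0.00124) and from 2.35, 1.92 and 2.02 to 3.33, 3.27 and 3.36 in deleted mice (1.22 ± 0.24, adjusted p = 0.00721). Every DDC library was above every standard-diet library. A region near Pltp, the phospholipid transfer protein, was listed in 3 of 3 controls on DDC and 0 of 3 on the standard diet (adjusted p = 0.00363), so its difference has no true size. In deleted mice that region was listed in 0 of 3 libraries on either diet. In deleted mice a region 1606 bp from Lpl, lipoprotein lipase, rose from 2.49, 1.63 and 2.56 to 3.31, 3.65 and 3.54 (1.27 ± 0.27, adjusted p = 0.0110, and 0.0611 without deleted DDC library 2). A region 14255 bp from Abcg8, a sterol exporter, fell from 2.62, 2.53 and 2.68 to 1.33, 1.53 and 1.70 (-1.09 ± 0.26, adjusted p = 0.0224). The Abcg8 call was lost without deleted standard-diet library 1 or 3 or deleted DDC library 1 or 2 (0.0515, 0.0645, 0.0851 and 0.0680). With only peaks of −log10 q of at least 5 the Lipc difference in controls fell to 0.499 and was not called (adjusted p = 0.119), and that in deleted mice was 0.739 (adjusted p = 0.0293). Joining peaks only at 50% reciprocal overlap ended the Lipc calls (0.300 in controls and 0.345 in deleted mice) and the Lpl call (0.427). The same Lpl region also rose in controls (1.03 ± 0.27, adjusted p = 0.0230), and the same Abcg8 region fell there (-0.853 ± 0.259, adjusted p = 0.0494). Another region in Lipc rose in controls (1.07 ± 0.21, adjusted p = 0.00323). Other Lipc regions fell in deleted mice (-1.147 ± 0.270, adjusted p = 0.0221, and -0.664 ± 0.166, adjusted p = 0.0307).

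Among the 28 transcription factors known for apolipoprotein genes, 10 of 562 regions rose and 10 fell on DDC in controls (3.56%), and 11 rose and 1 fell in deleted mice (2.14%), against 1 and 1 without deleted standard-diet libraries 1 and 3. The shares of all tested regions with all 12 libraries were higher, 7.02% in controls and 3.17% in deleted mice. A region in Rora, an orphan nuclear receptor, rose from 3.78, 3.28 and 3.55 to 4.59, 4.68 and 4.62 in controls (1.09 ± 0.13, adjusted p = 2.71e-05) and from 3.88, 4.00 and 3.72 to 4.46, 4.59 and 4.73 in deleted mice (0.72 ± 0.13, adjusted p = 0.00272). Other regions in Rora were called in both directions in each genotype. A region in Nr1h4, the bile acid receptor FXR, rose in controls from 1.75, 1.76 and 1.58 to 2.88, 3.14 and 3.40 (1.445 ± 0.235, adjusted p = 0.000697). A region in Nr1d2, a repressor of the circadian clock, rose in controls (1.61 ± 0.30, adjusted p = 0.00243) and in deleted mice (1.27 ± 0.30, adjusted p = 0.0235), the latter lost without deleted standard-diet library 1 or 2 or deleted DDC library 1 or 2 (0.0653, 0.0627, 0.0648 and 0.146). In Nr5a2, the nuclear receptor LRH-1, a region rose in deleted mice from 3.62, 3.83 and 3.15 to 4.41, 4.24 and 4.32 (0.79 ± 0.14, adjusted p = 0.00348). The same region also rose in controls (0.557 ± 0.142, adjusted p = 0.0203). The alternatives given for each gene refer to the region described first, and at Lpl, Abcg8 and Nr5a2 to deleted mice. Leaving out deleted standard-diet libraries 1 and 3 together ended the deleted-mouse calls at Lipc (0.0554), Rora (0.137), Nr5a2 (0.146), Nr1d2 (0.170), Tmem41b (0.224), Sort1 (0.0961) and Abcg8 (0.239). With library strength as a covariate all 8 calls in deleted mice that were followed under the alternatives were lost, with adjusted p from 0.111 at Lpl to 0.455 at Nr1d2. It also ended the Saa4 call in controls (0.0950). Restricting to peaks of −log10 q of at least 5 ended the calls at Saa4 (0.034, adjusted p = 0.883), at Sort1 (0.190, 0.293), at Tmem41b (0.768, 0.0527) and at Nr1d2 in deleted mice (0.558, 0.211). In controls it lowered the called differences at Nr1d2 to 0.920 and at Nr1h4 to 0.561. Joining at 50% reciprocal overlap ended the calls at Saa4 (0.113), Clu (0.149), Tmem41b (0.150), Sort1 (0.171) and Nr5a2 (0.111) and those at Nr1d2 (0.239 in controls and 0.760 in deleted mice). It raised the differences at Nr5a2 to 2.43 and at Surf4 to 1.86, the latter still called (0.0298), and lowered that at Nr1d2 in deleted mice to 0.445. With no filter on regions, which raises the number tested, the Saa4, Clu, Surf4, Dgat2, Pltp, Tmem41b, Sort1, Lpl, Abcg8 and deleted-mouse Nr1d2 calls were lost (0.052 to 0.173). The Clu call was also lost with all deposited peaks (0.149) or ranking by −log10 p (0.0866), and those at Tmem41b, Sort1, Abcg8 and Nr1d2 in deleted mice when only the groups compared were fitted (0.0694 to 0.0885). None of the regions of the 4 lists was called in the genotype comparisons or for a different diet effect between genotypes.

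**Figure D5:**
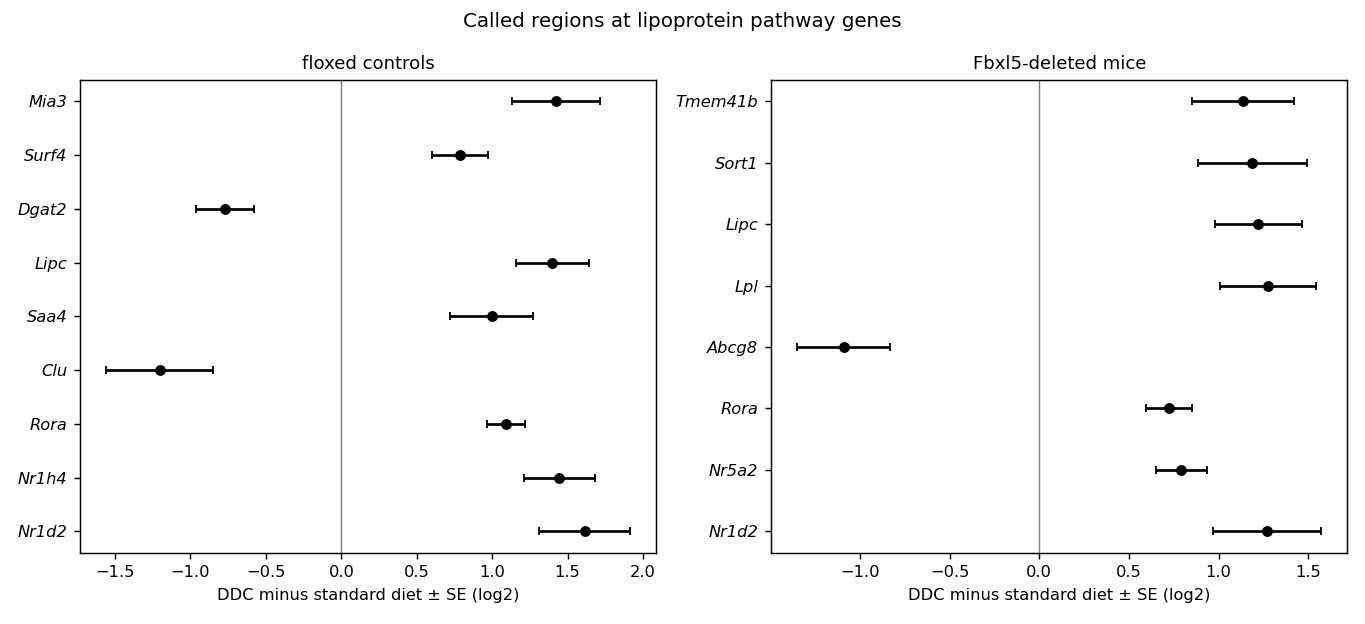
Difference DDC minus standard diet (x axis, log2, with its standard error) for the regions named at other lipoprotein genes and listed in every group compared, in floxed controls and in Fbxl5-deleted mice. Rora, Lipc and Nr1d2 lie to the right of 0 in both genotypes, and Dgat2, Clu and Abcg8 to the left in the genotype in which each was called.

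A mean profile of the members' start regions was taken over the libraries. Averaged over the 9 members that have one, the centred value ran from -0.20 in control DDC library 1 to 0.16 in control standard-diet library 3. Among 12482 other gene starts, those most like it by Pearson's r over the 12 libraries were Iqce (0.952), Dgat2 (0.937), Orm2 (0.936), Aloxe3 (0.935) and Tsc22d2 (0.929). These r are the highest of many, and the 12 libraries differ in list length and diet. The part of either in these r was not tested.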

How the data were processed

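ATAC-seq was done on hepatocytes separated by collagenase perfusion, and the submitters' processing notes name build mm10, MACS2, Bowtie2, fastp, Picard, SAMtools, deepTools and bedtools. Tool versions, settings and whether reads were shifted for the transposase are not stated in the sources used here. The authors deposited 1 peak list per library, so peaks were called per sample. Each deposited list gives the fold enrichment (a ratio) and the −log10 p and −log10 q of a peak, and the smallest −log10 p was 1.3 in every list. The score and the summit position in the deposited lists were not used.

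Summits of the same peak were merged, scaffolds other than the named chromosomes were left out, and kept peaks that overlapped by at least 1 bp were joined over libraries. Peaks tied in fold enrichment took the order of their −log10 p, then of position. Regions listed in at least 3 of 12 libraries were fitted with limma 3.58.1 in R 4.3.3 (4 group means, eBayes with trend and robust, two-sided), and an adjusted p under 0.05 was called. All 12 libraries share the estimate of spread. Depth is known only through the lists, which hold no counts. The check of replicate numbers and the alternatives (peak sets, joining, filters, ranking, covariate, left-out libraries, window) are in the closing section.

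Starts were those of the RefSeq promoter table. For Apoc3 and Apoc1 either end of the span was used, and for Apoe and Apoa2, whose span begins away from these starts, the region at the first base of the span is given too. All members are described, with the 3 regions of lowest p in each comparison and, for each list of other genes, up to 3 genes with the lowest adjusted p among called regions. Some results that this rule selects, among them the lowest p of 3 comparisons, are not reported here, and counts and medians include them. The members and lists were chosen with earlier results of these data known. The script was tested on simulated data. Python 3.11.15, numpy 2.4.6, pandas 2.3.3 and matplotlib 3.10.9 were used.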

Additional observations from a re-analysis of the deposited data

How the results depend on the processing

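Each of the 5 comparisons of member regions was repeated under 24 alternatives (23 for the interaction). No member region was called between genotypes or for the interaction under any of them, with a lowest adjusted p of 0.194 on the standard diet, 0.288 on DDC and 0.581 for the interaction. For diet in floxed controls the Sik3 region near Apoa1 was called with peaks ranked by −log10 p (0.392 ± 0.122, adjusted p = 0.0342). It was also called with library strength as a covariate (0.714 ± 0.199, adjusted p = 0.0468). The count of 0 thus became 1 of 87 with that ranking, against 8.58% of all regions. With the covariate the count became 1 of 68, against 4.46%. It became 2 without deleted standard-diet libraries 1 and 3, 2 within 50 kb, and 0 to 1 when 1 library was left out. For diet in controls, 7.02% of all regions were called in the main fit, and 3.61% to 7.57% with 1 library left out. For diet in deleted mice the count became 2 of 87 with ranking by −log10 p, against 4.5% of all regions. It became 1 within 50 kb, against 3.17% of all regions in the main fit. The first 2 were chr9:46224122-46224679 near Apoa1 (-1.518 ± 0.434, adjusted p = 0.0303) and chr9:46238838-46239179 near Apoa4 (0.805 ± 0.218, adjusted p = 0.0207). With a replicate block the count stayed 0 in each comparison. Deviations of same-numbered libraries had correlations of -0.024 to 0.056 (median 0.0145). Those of differently numbered libraries were -0.043 to 0.026 (median -0.004). These correlations are small and cannot show whether replicate numbers paired the mice. The Cep112 region near Apoh on DDC reversed to 0.584 with 50% reciprocal overlap, and the cause was not tested. Of the other values of named regions, 628 kept their direction and side of the threshold, 82 fell short of it and 5 passed it. The member median for diet moved to -0.045 in controls and 0.0 in deleted mice with no filter on regions, to -0.08 in controls within 50 kb and to -0.04 in deleted mice with ranking by −log10 p. Calls over all regions ranged from 3311 to 11820 for diet in controls, against 9728, and from 454 (library strength as covariate) to 6193 (ranked by −log10 p) in deleted mice, against 4395. They ranged from 0 to 149 and from 0 to 238 between genotypes and from 0 to 73 for the interaction, each highest with 50% reciprocal overlap. Peak lists without read counts limit what can be seen at weak start regions such as those of Apoa1, Apoe and Apoc1, where the value lies near the end of the list.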
